A study of Arabidopsis thaliana with 16 samples.

Results

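The comparison described here is that of phyA mutant seedlings in strong shade with phyA seedlings in white light, measured on 5 of the 16 Affymetrix arrays of the series: 3 from strong shade and 2 from white light, chosen by their titles. All 16 arrays hold whole seedlings of Arabidopsis thaliana in the Col-0 background, grown for 5 days in continuous white light and then treated for 24 h. The phyA groups carry the null allele phyA-211, so phytochrome A is missing from the white-light controls as well as from the shaded seedlings. White-light controls stayed in white light of about 45 µmol m-2 s-1, and in strong shade LEDs gave 30 µmol m-2 s-1 of far-red, 3 of red and 3.5 of blue light, so that red to far-red stood at 0.1. Wild-type (WT) seedlings under the same pair of light conditions, 2 arrays in white light and 3 in strong shade, serve only where the mutant's response was set against theirs. The remaining arrays, from a milder shade, entered the estimate of spread.

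Light source, total light and spectrum changed together between the groups and cannot be told apart. Whether the arrays of a group hold separately grown seedlings is not stated in the labels, and p-values therefore cover only the spread seen between arrays, possibly a technical one. Among the named probe sets, none has PHYA as its single listed gene, so the absence of its transcript was not checked on the arrays. Below, a gene of a list counts as measured if the annotation gives it as the single gene of a probe set. Genes not measured in this sense may still have probe sets among the 8730 without a listed gene. The labelled tissue was checked: the 3 measured root markers (PYK10, EXPA7 and EXPA18) and the 4 measured green shoot markers (RCA, PSAE-1, PSAN and LHCB4.1) were looked up on every phyA array. RCA, PSAE-1, PSAN, LHCB4.1 and PYK10 were well above the array median, while EXPA7 and EXPA18 were dim in strong shade, at 2.99, 2.89 and 2.91 and at 2.54, 2.75 and 2.46 on the log2 scale. The lists for seeds and for flowers had no measured member. In bulk seedlings, fewer cells of a type and less RNA per cell cannot be told apart.

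The third strong-shade array of phyA stands apart from the other 2. Its log2 values correlated at 0.983 with array 1 and 0.979 with array 2 of its own group, which correlated at 0.994 with each other. With the first 2 phyA arrays of the milder shade it correlated at 0.991 and 0.992, and with the white-light arrays at 0.925 and 0.927, where arrays 1 and 2 of strong shade reached 0.898 to 0.904. Conversely, the third phyA array of the milder shade correlated at 0.993 and 0.994 with strong-shade arrays 1 and 2. Whether the third arrays of the 2 shades were exchanged cannot be told from the labels. They were kept as given, "array 3" below is the third array labelled phyA strong shade, and each result was computed with and without it. Where only the value with all arrays is printed, the gene's call was the same without array 3.

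Plants sense neighbours through the phytochromes, which switch between an inactive and an active form according to the ratio of red to far-red light. In shade, phytochrome B loses its active form and phytochrome-interacting factors drive auxin synthesis and elongation growth. Phytochrome A is stabilised and signals under far-red light, where it restrains elongation. Seedlings held in dim light also lose the sugar that photosynthesis supplies, and plants short of carbon are known to break down amino acids and recycle cell contents by autophagy.

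Expression differed widely between the light conditions in phyA. Values are log2 of the deposited intensities, fold changes are differences of log2 values, strong shade minus white light, with the standard error after ±, and a probe set was called at a Benjamini-Hochberg adjusted p under 0.05 from limma. With all 3 strong-shade arrays, 4947 of 22746 probe sets (21.7%) were higher and 4609 (20.3%) lower in strong shade, 42.0% in all. Leaving out array 3 gave 5180 higher (22.8%) and 4743 lower (20.9%). Called both ways and in the same direction were 4683 higher (20.6%) and 4336 lower (19.1%) probe sets, 39.7% of all, and 0 probe sets were called in opposite directions. A further 537 were called only with array 3 and 904 only without it. Of the called probe sets, 46 were more than 4 log2 units higher and 44 more than 4 lower. The arrays of the groups did not overlap for 58.4% of all probe sets. The median log2 fold change over all probe sets was 0.04.

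Among probe sets called without it, array 3 mostly moved in the same direction as arrays 1 and 2 but less far. Among the 9923 probe sets called without it, array 3, which that fit did not use, lay beyond both white-light arrays on the same side for 93.9%. It was nearer to white light than both arrays 1 and 2 for 68.9% of them and further away than both for 16.8%. Its median distance from the white-light mean was 0.76 of the distance of arrays 1 and 2. These probe sets were chosen because arrays 1 and 2 lay far from the same white-light arrays. That choice by itself favours a shorter distance for an array left out, and its share in these values was not tested. For called genes of leucine breakdown and electron transfer the median was 0.61, for the autophagy genes 0.77, for photosystem and antenna genes 0.88 and for tetrapyrrole genes 1.00. These medians rest on 7 to 10 genes each, and their difference was not tested.

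**Figure D1:**
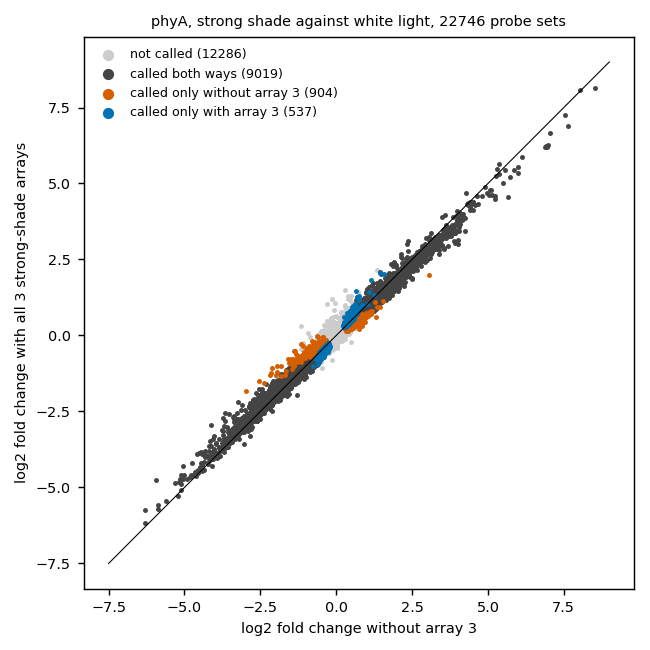
Log2 fold change of each of the 22746 probe sets, strong shade against white light in phyA, with all 3 strong-shade arrays (vertical axis) and without array 3 (horizontal axis); the line marks equal values. Dark points are called both ways, orange ones only without array 3 (904) and blue ones only with it (537); most of the strongly changed probe sets lie a little closer to 0 with array 3 than without it.

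The largest rises among genes with a symbol belonged to catabolic enzymes, autophagy, auxin response and stress-linked genes, and the largest falls to glucosinolate, cell wall and chloroplast genes. The plot of leading genes shows the 12 largest of each direction among 694 of 1557 symbol-named genes (353 higher, 341 lower) that were called both ways without overlap of the arrays. Of all probe sets, 39.7% were called both ways and 58.4% did not overlap. The values of the plotted genes are taken up group by group below.

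**Figure D2:**
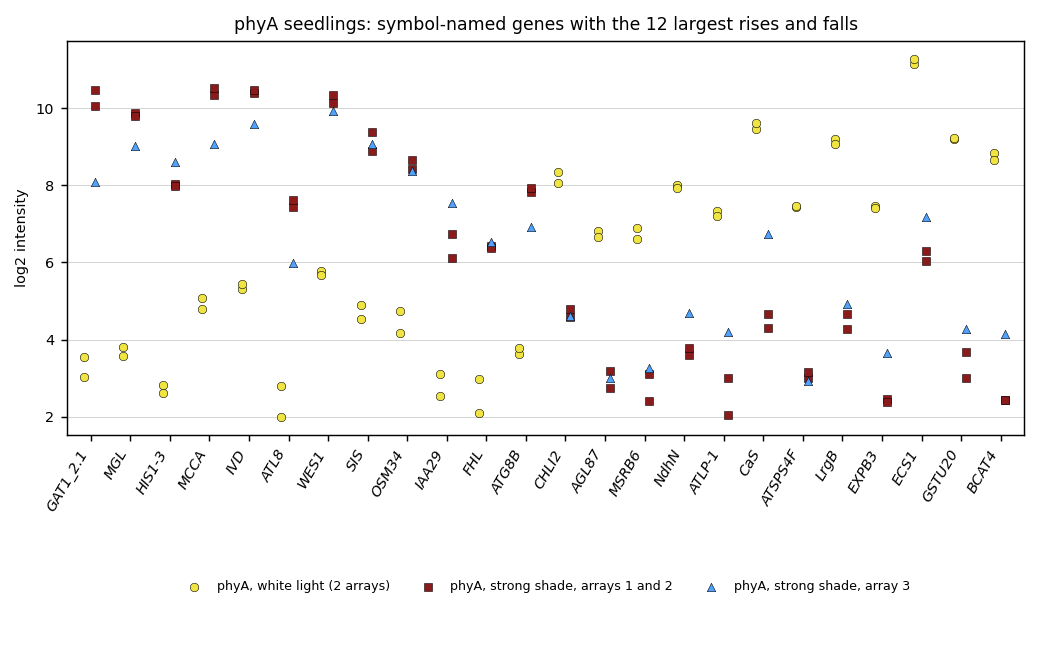
Log2 intensity on each phyA array for the 12 symbol-named genes with the largest rise (left) and the 12 with the largest fall (right): yellow circles, 2 white-light arrays; dark squares, strong-shade arrays 1 and 2; blue triangles, strong-shade array 3. No gene's groups overlap, and array 3 lies between white light and the other strong-shade arrays for GAT1_2.1, MCCA, ATL8, CaS and BCAT4 but beyond them for IAA29 and HIS1-3.

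Genes of light and shade signalling changed in both directions. All 3 measured genes of the shade-induced list, FHL, IAA29 and HAT2, rose with and without array 3, beside 20.6% of all probe sets. FHL encodes a relative of FHY1 that carries phytochrome A into the nucleus. Its log2 intensity was 2.1 and 2.97 in white light and 6.42, 6.37 and 6.52 in strong shade. All 3 strong-shade arrays were high and close together, and the log2 fold change was 3.90 ± 0.25 (adjusted p = 6.04e-09), or 3.86 ± 0.28 (adjusted p = 1.91e-08) without array 3. IAA29, an auxin-response repressor that phytochrome-interacting factors induce, stood at 3.11 and 2.54 in white light and at 6.73, 6.12 and 7.55 in strong shade. Array 3 was the highest of the group here, and the change of 3.97 ± 0.41 (adjusted p = 8.53e-07) was 3.60 ± 0.38 (adjusted p = 1.18e-06) without it. HAT2, a homeodomain-leucine zipper factor, rose by 1.28 ± 0.23 (adjusted p = 0.000228; without array 3, 1.05 ± 0.21, adjusted p = 0.00054). HYH, the partner of the light-signalling factor HY5, went the other way, from 5.71 and 5.74 to 3.22, 3.22 and 3.32. Its 3 strong-shade arrays were nearly equal, with a fold change of -2.47 ± 0.14 (adjusted p = 1.43e-09) and -2.51 ± 0.15 (adjusted p = 3.54e-09) without array 3.

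Among hormone genes, several that respond to auxin rose. Of the 5 early auxin-response genes measured, WES1, IAA29 and GH3.3 rose both ways, beside 20.6% of all probe sets. GH3.17 and GH3.1 did not pass, and the list's median was 2.03. WES1 and GH3.3 encode enzymes that join auxin to amino acids. WES1 stood at 5.78 and 5.67 in white light and 10.33, 10.13 and 9.93 in strong shade. That tight rise of 4.41 ± 0.13 (adjusted p = 4.15e-12; without array 3, 4.51 ± 0.13, adjusted p = 4.15e-12) was 21.2-fold. GH3.3 varied more, from 5.52 and 4.99 to 6.94, 6.50 and 8.40. Array 3 was its highest array, and leaving it out took the change from 2.03 ± 0.47 (adjusted p = 0.00225) to 1.47 ± 0.38 (adjusted p = 0.00481). GH3.17, at 6.29 and 6.52 in white light and 6.73, 6.46 and 6.72 in strong shade, overlapped between the groups (adjusted p = 0.27).

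The flavin monooxygenases of the YUC family make auxin, and of 3 measured members only YUC2 passed with all arrays, beside 42.0% of all probe sets. YUC2 stood at 3.77 and 3.83 in white light and 4.36, 4.17 and 4.50 in strong shade. Its rise of 0.54 ± 0.15 (adjusted p = 0.00647) kept its call without array 3 (adjusted p = 0.0231) but not without white-light array 1 (adjusted p = 0.0501). YUC4, dim on every array at 2.35 and 2.06 in white light and 1.64, 1.84 and 1.92 in strong shade, passed only when array 3 or white-light array 2 was left out (fold change -0.40 ± 0.16, adjusted p = 0.051; without array 3, -0.46 ± 0.17, adjusted p = 0.0399; without white-light array 2, adjusted p = 0.0451). YUC6 had a fold change of -0.05 ± 0.20 with overlapping arrays (adjusted p = 0.887).

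The 3 gibberellin receptor genes rose together with and without array 3, beside 20.6% of all probe sets. GID1A went from 5.09 and 4.75 to 7.14, 7.22 and 6.91, a change of 2.17 ± 0.13 (adjusted p = 2.76e-09). GID1C rose by 1.12 ± 0.13 (adjusted p = 4.33e-06) and GID1B by 0.98 ± 0.14 (adjusted p = 2.69e-05). In contrast, both measured type-A response regulators, which cytokinin induces and which damp its signal, fell, beside 20.3% of all probe sets. RR16 stood at 4.11 and 3.77 in white light and at 2.08, 2.08 and 1.90 in strong shade (fold change -1.92 ± 0.13, adjusted p = 1.22e-08; without array 3, -1.86 ± 0.14, adjusted p = 3.81e-08). ARR15 fell by 0.87 ± 0.16 (adjusted p = 0.000392), and 4 further response regulators of the ARR type, RR18, RR19, RR22 and RR23, did not pass, with fold changes between 0.10 and 0.31. EIN3, the transcription factor at the end of the ethylene pathway, went from 7.35 and 7.12 to 9.10, 9.11 and 8.75. That rise of 1.75 ± 0.15 (adjusted p = 1.46e-07) held without array 3 at 1.87 ± 0.15 (adjusted p = 7.09e-08). GI, the only gene of the clock list measured by the definition above, rose by 1.47 ± 0.20 (adjusted p = 1.67e-05; without array 3, 1.60 ± 0.21, adjusted p = 9.55e-06).

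Genes for low energy and amino acid breakdown had the highest median of the gene lists. All 10 measured genes of the list for darkness, low energy and amino acid catabolism rose both ways, with a median of 4.13 (4.56 without array 3) against 0.04 over all probe sets, of which 21.7% were called higher. GAT1_2.1, a glutamine amidotransferase-like protein, had the largest rise of a symbol-named gene. It stood at 3.04 and 3.54 in white light and at 10.06, 10.48 and 8.09 in strong shade. Array 3 was well below the other shaded arrays yet far above white light, and the change of 6.25 ± 0.55 (adjusted p = 1.56e-07) became 6.98 ± 0.39 (adjusted p = 1.4e-09) without it. A second, dimmer probe set of the same gene rose by 1.99 ± 0.38 (adjusted p = 0.000437). MGL, methionine gamma-lyase, which splits methionine, went from 3.58 and 3.81 to 9.87, 9.79 and 9.03. This was a rise of 5.87 ± 0.24 (adjusted p = 1.15e-10; without array 3, 6.13 ± 0.21, adjusted p = 3.68e-11), or 58.3-fold.

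Genes for leucine breakdown in the mitochondrion had large rises. IVD, isovaleryl-CoA dehydrogenase, went from 5.32 and 5.44 to 10.39, 10.47 and 9.58, a change of 4.77 ± 0.23 (adjusted p = 4.27e-10) or 5.05 ± 0.19 (adjusted p = 5.02e-11) without array 3. MCCA, the biotin-bearing subunit of methylcrotonyl-CoA carboxylase, stood at 5.09 and 4.80 in white light and at 10.34, 10.53 and 9.06 in strong shade. Its rise was 5.03 ± 0.35 (adjusted p = 1.37e-08), 5.49 ± 0.26 (adjusted p = 3.31e-10) without array 3, and the other subunit gene, MCCB, rose by 3.64 ± 0.33 (adjusted p = 2.64e-07). Electrons from IVD pass through an electron transfer flavoprotein. Its subunit genes ETFALPHA and ETFBETA rose by 0.92 ± 0.17 (adjusted p = 0.000364) and 1.74 ± 0.23 (adjusted p = 1.51e-05). ETFQO, the ubiquinone oxidoreductase that receives those electrons, went from 4.50 and 4.43 to 7.45, 7.46 and 5.99 and rose by 2.50 ± 0.38 (adjusted p = 5.23e-05; without array 3, 2.99 ± 0.28, adjusted p = 3.31e-07). With D2HGDH, the dehydrogenase for D-2-hydroxyglutarate, all 7 genes of this group rose both ways, beside 20.6% of all probe sets. The group was drawn up after its values were seen, so its count cannot be weighed against that share. The median of the 7 was 2.50 (2.99 without array 3). Array 3 was the lowest strong-shade array for each of the 7.

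Other carbon metabolism held changes in both directions. Of 24 genes for the citric acid cycle, cytosolic citrate cleavage, alternative NADH dehydrogenases and nearby steps, 4 rose and 6 fell both ways, 4 passed only without array 3, and the remaining 10 passed neither way. The share called both ways was near the 39.7% of all probe sets, and the median was -0.17. This list, too, was drawn up after its values were seen. PPDK, pyruvate orthophosphate dikinase, went from 5.87 and 6.11 to 9.98, 10.18 and 8.77 (fold change 3.65 ± 0.35, adjusted p = 4.58e-07; without array 3, 4.09 ± 0.27, adjusted p = 8.73e-09). ICL, the glyoxylate-cycle enzyme isocitrate lyase, rose less, by 1.38 ± 0.39 (adjusted p = 0.00941; without array 3, 1.17 ± 0.41, adjusted p = 0.0306), and lost its call without white-light array 1 (adjusted p = 0.0894). The 3 measured genes for the A subunit of ATP-citrate lyase divided: ACLA-3 rose by 1.91 ± 0.26 (adjusted p = 1.62e-05), ACLA-2 fell by 1.06 ± 0.14 (adjusted p = 1.35e-05) and ACLA-1 did not pass, at -0.25 ± 0.13.

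Every measured ATG autophagy gene rose, against 21.7% of all probe sets. The 10 ATG genes, 9 of them encoding ATG8 proteins that coat the autophagosome, were called higher with all arrays and without each of the 5 arrays in turn, with a median of 1.25 (1.36 without array 3). ATG8B changed most, from 3.63 and 3.79 to 7.82, 7.92 and 6.93. The rise was 3.85 ± 0.27 (adjusted p = 1.35e-08), and 4.16 ± 0.22 (adjusted p = 8.6e-10) without array 3. ATG8E rose by 1.71 ± 0.18 (adjusted p = 9.41e-07), APG8H by 1.67 ± 0.10 (adjusted p = 3.43e-09) and ATG8C by 1.31 ± 0.12 (adjusted p = 2.02e-07). ATG3, the enzyme that attaches ATG8 to lipid, had the smallest rise, 0.67 ± 0.12 (adjusted p = 0.00034). The senescence list did not follow: SAG29, WRKY53 and SAG101 had fold changes of -0.10 ± 0.27, 0.22 ± 0.13 and 0.33 ± 0.16. Of the 3, 0 passed with all arrays in limma, beside 42.0% of all probe sets, with 0 of 3 at an unadjusted p under 0.05. SAG101 passed without array 3 (adjusted p = 0.0339) or without white-light array 1 (adjusted p = 0.0402), and WRKY53 only without white-light array 2 (adjusted p = 0.0396).

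Aldehyde dehydrogenases, which oxidise reactive aldehydes and intermediates of amino acid breakdown, mostly rose: 6 of 8 rose, 1 fell and 1 did not pass, the same with and without array 3, beside 20.6% of all probe sets called higher and 19.1% lower both ways. ALDH7B4, an antiquitin-type enzyme, went from 6.43 and 6.63 to 10.46, 10.53 and 9.92, a change of 3.77 ± 0.17 (adjusted p = 1.98e-10). ALDH6B2, the methylmalonate semialdehyde dehydrogenase of valine breakdown, rose by 2.14 ± 0.31 (adjusted p = 3.98e-05; without array 3, 2.55 ± 0.24, adjusted p = 2.76e-07). ALDH10A8 rose by 1.52 ± 0.12 (adjusted p = 4.82e-08), whereas ALDH3F1 fell by 0.99 ± 0.15 (adjusted p = 4.57e-05).

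**Figure D3:**
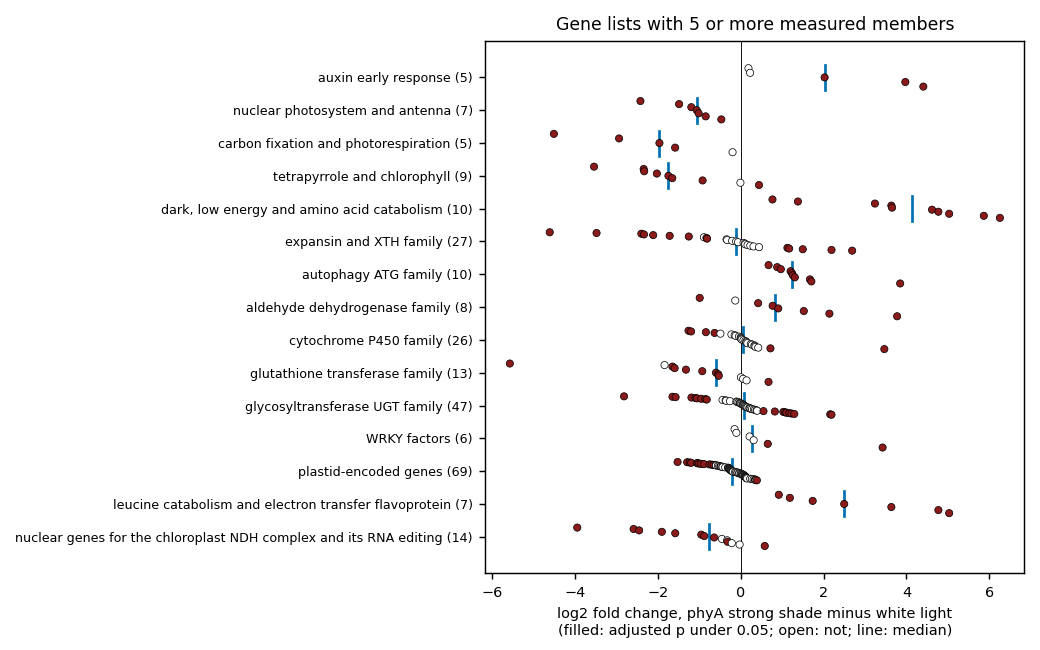
Log2 fold changes, strong shade minus white light in phyA, of the measured members of selected gene lists with 5 or more members (number in brackets): each point is a gene, filled where adjusted p is under 0.05, and the blue line is the list's median. Not drawn were response regulators, SWEET transporters, iron response, other carbon metabolism and cold genes (medians 0.11, 0.15, 0.04, -0.17 and 0.12). The subsets of the plastid-encoded genes were not drawn either. All points for amino acid catabolism, autophagy and leucine breakdown are filled and right of 0, those for photosystems and antennae are filled and left of 0, and plastid-encoded genes gather around 0. The leucine breakdown and nuclear NDH lists were drawn up after their values were seen.

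Nuclear genes of the photosynthetic apparatus fell. All 7 measured photosystem and antenna genes were lower both ways, with a median of -1.06 (-1.08 without array 3), where 20.3% of all probe sets were called lower. LHCB4.3, a minor antenna protein of photosystem II, stood at 6.54 and 6.16 in white light and at 3.74, 3.88 and 4.17 in strong shade. This fall was the deepest of the 7, at -2.42 ± 0.20 (adjusted p = 7.43e-08). PSBY of photosystem II fell by 1.49 ± 0.13 (adjusted p = 1.53e-07), and PSAE-1 and PSAN of photosystem I fell by 1.19 ± 0.13 (adjusted p = 1.45e-06) and 1.06 ± 0.14 (adjusted p = 1.68e-05). LHCB4.1, at 11.56 and 11.55 in white light and 11.22, 11.25 and 10.79 in strong shade, changed least, by -0.47 ± 0.13 (adjusted p = 0.00962). That call held without array 3 (adjusted p = 0.0364) and was lost without white-light array 1 (adjusted p = 0.0536) or white-light array 2 (adjusted p = 0.0509).

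Genes of carbon fixation and its side paths also fell. Of 5 measured genes, 4 fell both ways, beside 19.1% of all probe sets, and the median was -1.96. SBPASE, a phosphatase that helps regenerate the acceptor of carbon dioxide in the Calvin cycle, went from 10.26 and 10.17 to 7.35, 7.30 and 7.21. All 3 shaded arrays were low and close, for a change of -2.93 ± 0.12 (adjusted p = 1.19e-10). PRK, the kinase that makes that acceptor, fell by 1.96 ± 0.17 (adjusted p = 1.98e-07) and RCA, rubisco activase, by 1.58 ± 0.17 (adjusted p = 1.92e-06). LrgB, known as the plastid exporter of glycolate in photorespiration, stood at 9.19 and 9.06 in white light and at 4.26, 4.66 and 4.93 in strong shade (fold change -4.51 ± 0.24, adjusted p = 1.09e-09; without array 3, -4.66 ± 0.25, adjusted p = 1.07e-09). HPR, a peroxisomal enzyme of photorespiration, had a fold change of -0.20 ± 0.13 and did not pass (adjusted p = 0.276). ATSPS4F, a sucrose phosphate synthase, went from 7.44 and 7.45 to 3.00, 3.16 and 2.94 and fell by 4.41 ± 0.33 (adjusted p = 2.6e-08). APL3, a subunit of the starch-making ADP-glucose pyrophosphorylase, fell by 0.79 ± 0.15 (adjusted p = 0.000477), and QQS did not pass (0.42 ± 0.30, adjusted p = 0.292).

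The chloroplast NDH complex, which cycles electrons around photosystem I, has subunits encoded in the nucleus and in the plastid. NdhN, a nuclear-encoded subunit, went from 8.01 and 7.92 to 3.60, 3.78 and 4.70, a change of -3.94 ± 0.24 (adjusted p = 4.04e-09) or -4.28 ± 0.17 (adjusted p = 6.21e-11) without array 3. NdhL fell by 2.45 ± 0.14 (adjusted p = 1.43e-09), with shaded arrays at 5.70, 5.72 and 5.62 against 8.14 and 8.12. Of 14 nuclear genes for NDH subunits, assembly and editing of NDH transcripts, 9 fell with all arrays, beside 20.3% of all probe sets. Of these, 8 also fell without array 3, beside 19.1% of all probe sets lower both ways. The list of 14 was drawn up after its values were seen, so its counts cannot be weighed against those shares. NdhS rose both ways by 0.58 ± 0.14 (adjusted p = 0.00357). CRR42, CRR21 and CRR41 fell by 2.58 ± 0.19 (adjusted p = 2.02e-08), 1.90 ± 0.21 (adjusted p = 1.86e-06) and 1.58 ± 0.20 (adjusted p = 9.19e-06). None of the 10 plastid-encoded NDH genes passed in either direction with limma, with or without array 3, where 42.0% of all probe sets passed with all arrays. Of the 10, 0 had an unadjusted p under 0.05 with all arrays. Their fold changes lay between -0.29 (ndhJ) and 0.31 (ndhG), with ndhK at -0.27 ± 0.18 and ndhH at -0.24 ± 0.18. CaS, a thylakoid calcium-sensing protein, stood at 9.47 and 9.62 in white light and at 4.66, 4.31 and 6.75 in strong shade. Array 3 sat well above the other shaded arrays, and the change of -4.3 ± 0.54 (adjusted p = 7.92e-06) became -5.06 ± 0.36 (adjusted p = 1.64e-08) without it.

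Of 69 measured plastid-encoded genes, 14 fell and 3 rose with all arrays, 13 and 1 of them both ways, and the median was -0.20. Of all probe sets, 42.0% were called with all arrays. The called falls included psbC, an inner antenna of photosystem II, and rbcL, the large subunit of rubisco. For psbC the values were 9.96 and 9.98 in white light and 8.28, 8.35 and 9.42 in strong shade. Array 3 was close to white light, and the change of -1.29 ± 0.29 (adjusted p = 0.00193) became -1.66 ± 0.23 (adjusted p = 1.67e-05) without it. The rbcL probe set went from 9.57 and 9.38 to 8.29, 8.52 and 8.04, a change of -1.19 ± 0.16 (adjusted p = 1.73e-05). The ribosomal protein genes rps16, rpl33 and rps18 fell by 1.52 ± 0.12 (adjusted p = 7.19e-08), 1.23 ± 0.18 (adjusted p = 4.16e-05) and 1.05 ± 0.18 (adjusted p = 0.00022). The photosystem I gene psaJ fell by 0.88 ± 0.13 (adjusted p = 3.6e-05), and the RNA polymerase gene rpoC1 by 0.95 ± 0.17 (adjusted p = 0.000222). The called rises were small: psbA, at 0.39 ± 0.12 (adjusted p = 0.0159), kept its call without array 3 but not without white-light array 2 (adjusted p = 0.164), and psbE and psbL lost theirs without array 3 (0.33 ± 0.14, adjusted p = 0.0655, and 0.33 ± 0.15, adjusted p = 0.0919) and also without strong-shade array 2 or white-light array 2.

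Most measured genes of tetrapyrrole and chlorophyll synthesis fell. Of 9 tetrapyrrole genes, 7 fell and HEMA2 rose both ways, HEMA3 did not pass, and the median was -1.74. Of all probe sets, 19.1% were called lower both ways. CHLI2, a subunit of the magnesium chelatase that commits porphyrin to chlorophyll, went from 8.34 and 8.06 to 4.59, 4.79 and 4.60. The shaded arrays were tightly grouped, with a change of -3.54 ± 0.14 (adjusted p = 9.71e-11). HEME1 and HEME2, uroporphyrinogen decarboxylases, fell by 2.34 ± 0.17 (adjusted p = 1.82e-08) and 2.33 ± 0.12 (adjusted p = 7.92e-10), and PORB, the light-dependent protochlorophyllide reductase, by 2.02 ± 0.14 (adjusted p = 1.04e-08). HEMA2, a glutamyl-tRNA reductase gene, stood at 4.72 and 4.70 in white light and 5.38, 5.29 and 4.79 in strong shade. Its rise of 0.44 ± 0.17 (adjusted p = 0.0479) was 0.62 ± 0.15 (adjusted p = 0.00314) without array 3 and lost its call without any one of the other 4 arrays (adjusted p between 0.138 and 0.175). LYC, lycopene beta-cyclase of carotenoid synthesis, fell by 0.51 ± 0.12 (adjusted p = 0.00184).

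The 4 green shoot markers are themselves photosystem, antenna and carbon fixation genes described above, and so are no separate check. Their summed linear intensity lay between 12137 and 13138 in white light and between 5839 and 6347 in strong shade. The 3 root markers fell as well, from sums of 2455 and 2523 to sums between 779 and 1775, the highest being array 3. PYK10, a root beta-glucosidase, carried most of that sum and stood at 11.28 and 11.24 in white light and 9.58, 9.66 and 10.78 in strong shade, with a change of -1.25 ± 0.27 (adjusted p = 0.00121) and -1.64 ± 0.17 (adjusted p = 8.79e-07) without array 3. EXPA18 and EXPA7, expansins of root hairs, fell by 1.71 ± 0.17 (adjusted p = 7.04e-07) and 1.25 ± 0.26 (adjusted p = 0.000967). The part of organ proportions in the changes above was not tested.

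The measured genes for flavonoids and for methionine-derived glucosinolates fell. All 4 measured flavonoid and anthocyanin genes fell both ways, beside 19.1% of all probe sets, with a median of -2.1. DFR, dihydroflavonol reductase of anthocyanin synthesis, went from 4.84 and 4.38 to 2.03, 1.88 and 2.02 (fold change -2.63 ± 0.15, adjusted p = 1.65e-09). UGT78D1 and UGT78D2, which add sugars to flavonols and anthocyanins, fell by 2.81 ± 0.23 (adjusted p = 6.81e-08) and 1.06 ± 0.13 (adjusted p = 9.37e-06), and UF3GT, an anthocyanin glycosyltransferase, by 1.58 ± 0.17 (adjusted p = 1.67e-06). BCAT4, the aminotransferase that starts side-chain elongation of methionine for glucosinolates, had the deepest fall of a symbol-named gene. It stood at 8.83 and 8.66 in white light and at 2.44, 2.45 and 4.15 in strong shade. Arrays 1 and 2 lay near the dim end of the scale and array 3 was higher, for a change of -5.73 ± 0.48 (adjusted p = 1.04e-07) and -6.30 ± 0.39 (adjusted p = 4.08e-09) without array 3. GSTU20, a glutathione transferase placed on the same list, went from 9.21 and 9.22 to 3.69, 2.99 and 4.27, a change of -5.57 ± 0.31 (adjusted p = 1.47e-09). These 2 genes were all that was measured of the aliphatic glucosinolate list.

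Cell wall genes divided. Of 27 expansin and XTH genes, which loosen walls or cut and rejoin xyloglucan, 5 rose and 9 fell both ways, beside 20.6% and 19.1% of all probe sets, and the median was -0.11. EXPA16 rose from 3.05 and 3.31 to 5.29, 5.33 and 6.99. Its highest array was array 3, and the change of 2.69 ± 0.41 (adjusted p = 5.61e-05) was 2.13 ± 0.28 (adjusted p = 1.33e-05) without it. EXLA1, an expansin-like gene, rose by 2.19 ± 0.33 (adjusted p = 5.71e-05). EXPB3, a beta-expansin, fell from 7.46 and 7.42 to 2.46, 2.39 and 3.65, a change of -4.61 ± 0.33 (adjusted p = 1.7e-08). XTH32, at 6.89 and 7.10 in white light and 3.33, 2.37 and 4.86 in strong shade, fell by 3.48 ± 0.50 (adjusted p = 3.07e-05; without array 3, -4.15 ± 0.35, adjusted p = 1.05e-07), and EXPA15 fell by 2.40 ± 0.30 (adjusted p = 7.02e-06).

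Stress and defence genes showed no common direction. Of 6 cold, dehydration and abscisic acid genes, 2 rose and 2 fell both ways, beside 20.6% and 19.1% of all probe sets. HIS1-3, a linker histone variant induced by drought, went from 2.60 and 2.83 to 8.04, 7.98 and 8.60. Array 3 was the highest, and the rise of 5.49 ± 0.31 (adjusted p = 1.59e-09) was 5.29 ± 0.32 (adjusted p = 3.08e-09) without it. COR47, a dehydrin, rose by 1.06 ± 0.21 (adjusted p = 0.000632), while the chloroplast cold-protection gene COR15B fell by 2.37 ± 0.49 (adjusted p = 0.000968). Its relative COR15A fell by 2.11 ± 0.81 (adjusted p = 0.0461; without array 3, -2.43 ± 0.86, adjusted p = 0.0321), a call lost without any one of the other 4 arrays (adjusted p between 0.0951 and 0.224). OSM34, an osmotin-like protein of the thaumatin family, rose from 4.17 and 4.73 to 8.41, 8.66 and 8.37, a change of 4.03 ± 0.20 (adjusted p = 5.74e-10). THI2.2, a thionin, fell by 2.61 ± 0.29 (adjusted p = 1.98e-06), and THI2.1 and PDF1.2 were dim and did not pass (-0.14 ± 0.14 and 0.01 ± 0.15). Of 6 WRKY factors, 2 rose and 0 fell with all arrays, where 42.0% of all probe sets were called. WRKY22 rose from 2.50 and 2.57 to 6.35, 6.59 and 4.92 (fold change 3.42 ± 0.51, adjusted p = 4.86e-05; without array 3, 3.94 ± 0.46, adjusted p = 3.72e-06). WRKY6 rose by 0.65 ± 0.21 (adjusted p = 0.0197), a call that was kept without array 3 (adjusted p = 0.0213) and lost without strong-shade array 2 (adjusted p = 0.0845), white-light array 1 (adjusted p = 0.103) or white-light array 2 (adjusted p = 0.0716). The other 4 WRKY genes, WRKY47 (0.31 ± 0.25, adjusted p = 0.362) among them, did not pass with all arrays, and neither did the heat shock gene ATHSP22.0 (adjusted p = 0.993), dim on every array.

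Enzyme families of secondary metabolism held rises and falls, and no difference between families was tested. Among 13 glutathione transferases, 8 fell and 1 rose both ways, with a median of -0.60, beside 19.1% of all probe sets lower and 20.6% higher. GSTU18 and GSTU26 fell by 1.65 ± 0.25 (adjusted p = 5.04e-05) and 1.59 ± 0.23 (adjusted p = 3.3e-05), and GSTU16 rose by 0.67 ± 0.14 (adjusted p = 0.000915). Of 47 UGT glycosyltransferases, 10 rose and 9 fell both ways, a total close to the 39.7% of all probe sets called both ways, and the median was 0.08. UGT87A2 rose from 5.87 and 5.89 to 8.18, 8.34 and 7.69, by 2.19 ± 0.18 (adjusted p = 8.12e-08). UGT73B1 rose by 2.16 ± 0.22 (adjusted p = 7.71e-07) and UGT76C2, a cytokinin glucosyltransferase, fell by 1.64 ± 0.15 (adjusted p = 2.83e-07). Of 26 cytochrome P450 genes, 2 rose and 3 fell both ways, beside that 39.7% of all probe sets. CYP71B23 rose from 3.33 and 3.83 to 7.24, 7.70 and 6.20 (3.47 ± 0.36, adjusted p = 1.05e-06), while its relatives CYP71B26, CYP71B36 and CYP71B35 fell by 1.26 ± 0.20 (adjusted p = 6.65e-05), 1.2 ± 0.14 (adjusted p = 3.08e-06) and 0.84 ± 0.21 (adjusted p = 0.00341). Many of these genes belong to clusters of near-identical copies, so their probe sets may share signal.

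Of the remaining leading genes, ATL8, a RING-type ubiquitin ligase, rose from 2.00 and 2.80 to 7.43, 7.61 and 5.99 (fold change 4.61 ± 0.41, adjusted p = 1.93e-07; without array 3, 5.12 ± 0.32, adjusted p = 4.02e-09). SIS, named for its induction by salt, rose by 4.40 ± 0.31 (adjusted p = 1.51e-08). ECS1 fell from 11.13 and 11.28 to 6.29, 6.03 and 7.17, a change of -4.71 ± 0.44 (adjusted p = 3.49e-07). ATLP-1 and MSRB6, a methionine sulfoxide reductase, fell by 4.19 ± 0.46 (adjusted p = 1.93e-06) and 3.83 ± 0.39 (adjusted p = 7.47e-07). AGL87, a MADS-box factor, fell by 3.75 ± 0.16 (adjusted p = 1.27e-10).

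Some of the steepest changes belonged to genes known here only by locus tag. The highest and lowest fold changes of all probe sets, 8.14 and -6.17, lay beyond those of every gene named here and are not described. AT5G39520 went from 2.2 and 2.47 in white light to 9.76, 10.01 and 9.04 in strong shade, a rise of 7.27 ± 0.34 (adjusted p = 2.72e-10), larger than that of any symbol-named gene. AT1G19530 rose by 6.19 ± 0.51 (adjusted p = 9.3e-08) and AT4G25580 by 5.53 ± 0.36 (adjusted p = 7.02e-09). Downward, AT1G73600 went from 7.62 and 7.45 to 2.29, 2.33 and 2.16, all shaded arrays near the dim end of the scale, for a change of -5.27 ± 0.17 (adjusted p = 1.12e-11). AT4G30650 and AT2G43550 fell by 4.67 ± 0.28 (adjusted p = 2.78e-09) and 4.60 ± 0.26 (adjusted p = 1.57e-09).

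Array 3 decided the call of a minority of genes. Among the 1557 symbol-named genes, 67 were called only without array 3 and 36 only with it, beside 904 and 537 of all 22746 probe sets. GSTU25, a glutathione transferase, stood at 7.51 and 7.57 in white light and at 4.57, 4.56 and 7.97 in strong shade. Array 3 lay above white light and arrays 1 and 2 far below it, so that a change of -2.97 ± 0.38 (adjusted p = 1.01e-05) without array 3 became -1.84 ± 0.74 (adjusted p = 0.0576) with it. NANA behaved alike, at 6.16 and 6.12 in white light and 4.19, 3.82 and 6.68 in strong shade, with -2.14 ± 0.26 (adjusted p = 5.97e-06) without array 3 and -1.25 ± 0.56 (adjusted p = 0.0913) with it. XTH16 and CLE44, which encodes a signalling peptide, had array 3 values above both white-light arrays as well, and fold changes without array 3 of -1.41 ± 0.37 (adjusted p = 0.00501) and -1.26 ± 0.25 (adjusted p = 0.000594). Higher only without array 3 were ATIM (1.55 ± 0.45, adjusted p = 0.0106), the sugar transporter gene SWEET2 (0.87 ± 0.24, adjusted p = 0.008), MED9 of the Mediator complex (0.76 ± 0.15, adjusted p = 0.000626) and hemf2 (0.74 ± 0.23, adjusted p = 0.0169). SWEET2 stood at 7.16 and 7.12 in white light and 7.89, 8.12 and 6.67 in strong shade, with array 3 below both white-light arrays.

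Calls that needed array 3 were smaller. NAMT1 stood at 2.07 and 2.22 in white light and 2.94, 2.74 and 4.51 in strong shade, with array 3 far above the rest. Its fold change of 1.25 ± 0.44 (adjusted p = 0.0328) fell short without array 3 (0.70 ± 0.34, adjusted p = 0.119), without white-light array 1 (adjusted p = 0.143) and without white-light array 2 (adjusted p = 0.101). LBD16, a lateral root factor, and the mitochondrial genes ccb452 and nad5 were higher by 0.78 ± 0.24 (adjusted p = 0.016), 0.77 ± 0.25 (adjusted p = 0.0229) and 0.65 ± 0.21 (adjusted p = 0.0207) only with it. Without array 3 their adjusted p-values were 0.0571, 0.0695 and 0.0623. The probe sets of these mitochondrial genes can bind other transcripts, and a second nad5 probe set did not pass (0.20 ± 0.13, adjusted p = 0.266). Lower only with array 3 were psbB (-0.65 ± 0.20, adjusted p = 0.0169), the histidine synthesis gene AT-HF (-0.65 ± 0.21, adjusted p = 0.0233), sks16 (-0.64 ± 0.22, adjusted p = 0.0246) and CYP71B37 (-0.63 ± 0.22, adjusted p = 0.033). Without it their adjusted p-values were 0.0652, 0.0882, 0.061 and 0.0725. All 8 of these calls were also lost without at least 1 white-light array (adjusted p between 0.0512 and 0.453), and those of ccb452, sks16 and CYP71B37 without strong-shade array 1 as well (adjusted p between 0.0595 and 0.0965).

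Among genes called both ways, 5 moved most in size when array 3 was left out: CaS, GAT1_2.1, XTH32, ASPGB1 and EXPA4. ASPGB1, an asparaginase, stood at 4.80 and 4.32 in white light and 7.97, 8.23 and 6.17 in strong shade, a rise of 2.89 ± 0.51 (adjusted p = 0.000234) with array 3 and 3.54 ± 0.40 (adjusted p = 2.14e-06) without it. EXPA4, an expansin, stood at 7.10 and 6.87 in white light and 4.40, 4.11 and 6.12 in strong shade, with a fold change of -2.11 ± 0.47 (adjusted p = 0.00176) and, without array 3, -2.73 ± 0.35 (adjusted p = 8.05e-06). In each of the 5, array 3 lay between the white-light arrays and the other strong-shade arrays.

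**Figure D4:**
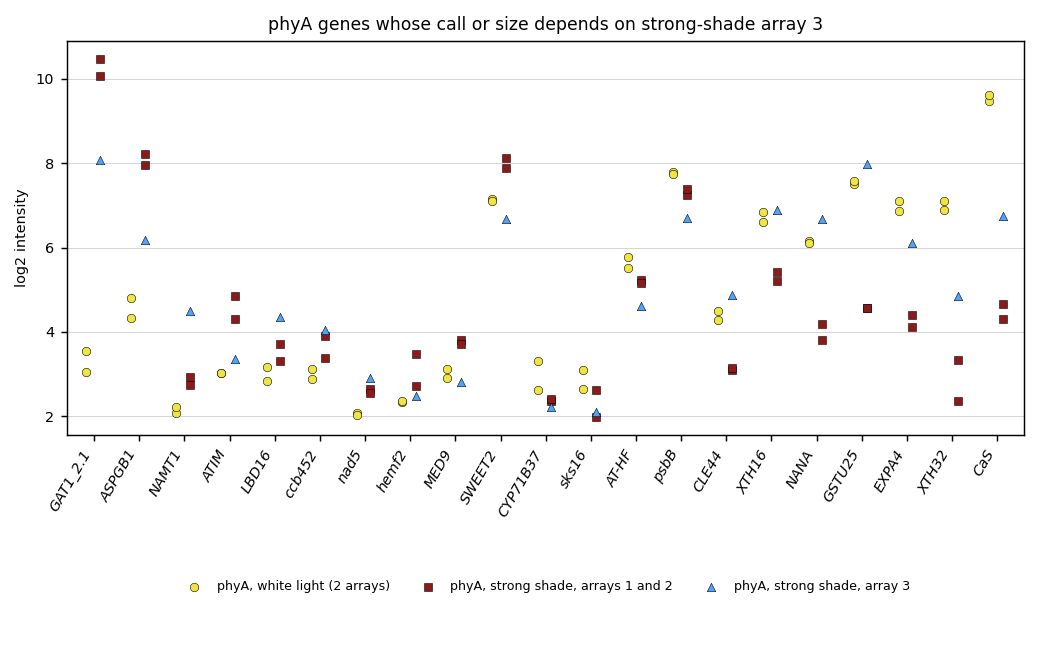
Log2 intensity on each phyA array for genes whose call changed with array 3 or whose fold change moved most without it, ordered by fold change with all arrays: yellow circles, white light; dark squares, strong-shade arrays 1 and 2; blue triangles, array 3. Array 3 lies at or above white light for GSTU25, NANA, XTH16 and CLE44, while arrays 1 and 2 lie below it.

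The response of phyA to strong shade differed from that of WT for a small share of probe sets. The difference tested was the log2 fold change in phyA minus that in WT. It was called lower in phyA for 579 probe sets (2.55%) and higher for 254 (1.12%), 3.66% in all, and for 522 lower (2.29%) and 211 higher (0.928%) both with and without array 3. Of those 522, 477 fell in phyA, and their median fold change was -1.83 in phyA and -0.45 in WT. The median of phyA minus WT over these probe sets was -0.01 in white light and -1.29 in strong shade. Of the 211, 130 rose in phyA, with medians of 0.78 in phyA and -0.28 in WT. Over the 211, the median of phyA minus WT was -0.18 in white light and 0.87 in strong shade. Both sets were chosen for the difference in response, so the order of their phyA and WT medians follows from the choice. Among the 1557 symbol-named genes 61 were called both ways, 42 lower and 19 higher.

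The lower responses included photosynthesis genes. All 4 genes of carbon fixation and photorespiration that fell in phyA also had a lower response than WT, as did 4 of the 7 photosystem and antenna genes and 4 of the 14 nuclear NDH genes, with and without array 3. Of all probe sets, 2.29% were lower both ways. The nuclear NDH list was drawn up after its values were seen, so its count cannot be weighed against that share. Of the 4 photosystem genes, LHCB4.3, PSAN, PSBW and PSBY, only LHCB4.3 was called without WT white-light array 1. Only LHCB4.3 and PSBY were called without WT strong-shade array 1 or 3, WT white-light array 2 or either phyA white-light array. NdhN in WT stood at 8.27 and 8.29 in white light and 7.71, 7.41 and 7.78 in strong shade, against the deep fall in phyA given above. The difference was -3.29 ± 0.34 (adjusted p = 4.63e-05; without array 3, -3.63 ± 0.22, adjusted p = 7.94e-07). SBPASE went from 10.46 and 10.49 to 9.72, 9.61 and 9.90 in WT, and the difference was -2.2 ± 0.17 (adjusted p = 5.98e-06). For LrgB the WT values were 9.32 and 9.43 in white light and 7.74, 7.37 and 8.12 in strong shade, with a difference of -2.87 ± 0.34 (adjusted p = 0.000138). NdhL and PRK changed little in WT (-0.26 and 0.08) and differed by -2.19 ± 0.19 (adjusted p = 1.17e-05) and -2.04 ± 0.25 (adjusted p = 0.000144). Cpn60beta4, a subunit of the chloroplast chaperonin, stood at 6.06 and 5.95 in white light and 5.83, 5.79 and 6.24 in strong shade in WT against 5.63 and 5.56 in white light and 3.38, 3.05 and 3.62 in strong shade in phyA. Its WT groups overlapped and its phyA groups did not, with a difference of -2.2 ± 0.34 (adjusted p = 0.00112). Among the 69 plastid-encoded genes psbN alone was called with all arrays, beside 3.66% of all probe sets. Its WT response was 0.86, its phyA response -1.04 ± 0.19 and the difference -1.90 ± 0.27 (adjusted p = 0.000608). Without array 3, psbC (-1.40, adjusted p = 0.0152), psbZ (-0.88, adjusted p = 0.0265) and rpl33 (-0.87, adjusted p = 0.0475) were called lower in phyA as well.

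THI2.2 and ECS1 also had lower responses in phyA. THI2.2 stood at 8.12 and 8.43 in white light and 8.92, 7.98 and 9.44 in strong shade in WT, overlapping, while in phyA it fell from 8.83 and 8.53 to 6.03, 6.27 and 5.90. The difference was -3.11 ± 0.41 (adjusted p = 0.000284). ECS1 went in WT from 10.87 and 11.14 to 9.34, 8.11 and 9.73, a smaller step than in phyA, with a difference of -2.76 ± 0.62 (adjusted p = 0.0198; without array 3, -3.10 ± 0.59, adjusted p = 0.00614). This call was lost when phyA strong-shade array 1, either phyA white-light array, either WT white-light array, or WT strong-shade array 1 or 3 was left out (adjusted p between 0.0504 and 0.0887). HYH changed by -0.60 in the WT means and by -2.47 ± 0.14 in phyA, a difference of -1.87 ± 0.19 (adjusted p = 4.63e-05), and the anthocyanin gene DFR differed by -1.36 ± 0.21 (adjusted p = 0.00117).

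FHL led the genes whose response was higher in phyA. In WT it stood at 2.50 and 2.66 in white light and 2.97, 3.20 and 3.24 in strong shade, dim on every array. The change in WT means was 0.55, so the phyA response exceeded it by 3.35 ± 0.36 (adjusted p = 4.85e-05; without array 3, 3.31 ± 0.37, adjusted p = 7.52e-05). EXPB1, a beta-expansin, went from 5.32 and 5.61 to 2.67, 2.62 and 2.59 in WT and from 4.69 and 4.65 to 3.92, 3.29 and 4.37 in phyA. WT thus reached a lower level, and the difference was 2.03 ± 0.39 (adjusted p = 0.00648), lost without WT white-light array 2 (adjusted p = 0.0501). The fall within phyA (-0.81 ± 0.28, adjusted p = 0.0265) lost its call without strong-shade array 2 (adjusted p = 0.119), white-light array 1 (adjusted p = 0.113) or white-light array 2 (adjusted p = 0.0975). OSM34 went from 6.84 and 6.11 to 8.73, 8.68 and 8.71 in WT, ending near the phyA level from a higher start, with a difference of 1.80 ± 0.29 (adjusted p = 0.00162). XTH19 stood at 5.09 and 5.91 in white light and 4.88, 5.32 and 5.49 in strong shade in WT and rose from 5.75 and 5.97 to 7.01, 7.17 and 7.89 in phyA. Its difference of 1.77 ± 0.40 (adjusted p = 0.0206) was lost without WT strong-shade array 1 (adjusted p = 0.054), WT white-light array 2 (adjusted p = 0.149) or phyA white-light array 1 (adjusted p = 0.104) or 2 (adjusted p = 0.0569). P1R3 rose from 2.64 and 2.66 to 4.81, 5.00 and 4.68 in phyA against 2.83 and 2.97 in white light and 4.01, 3.44 and 3.43 in strong shade in WT (difference 1.45 ± 0.28, adjusted p = 0.00608). DRT100 did not pass in phyA (0.40 ± 0.19, adjusted p = 0.119) and stood lower in shaded WT, at 6.95, 6.43 and 6.83 against 7.86 and 7.69, for a difference of 1.44 ± 0.28 (adjusted p = 0.00608). The WT means of WES1 differed by 3.35, and the response in phyA exceeded this by 1.06 ± 0.18 (adjusted p = 0.00258).

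**Figure D5:**
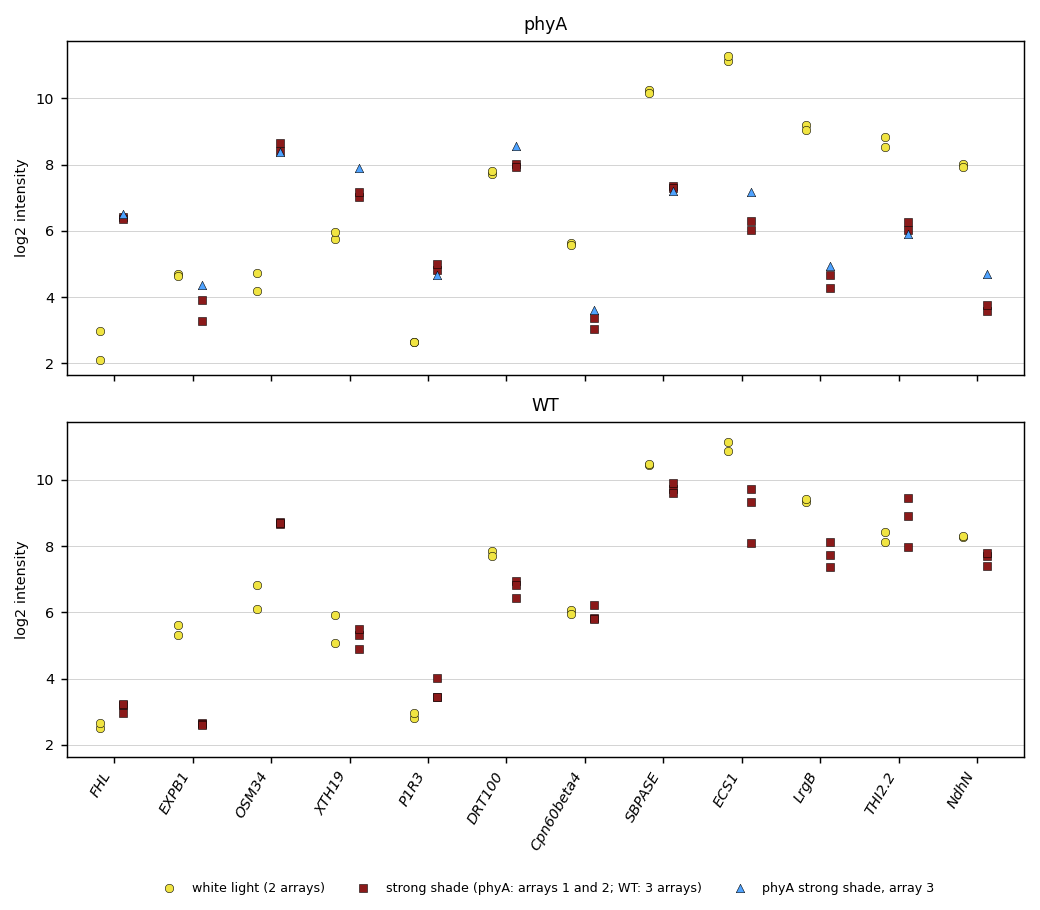
Log2 intensity per array of the 12 symbol-named genes with the largest differences in strong-shade response between phyA (upper panel) and WT (lower panel): yellow circles, 2 white-light arrays; dark squares, strong-shade arrays 1 and 2 of phyA or all 3 of WT; blue triangles, phyA array 3. From NdhN to Cpn60beta4 the shaded phyA arrays lie well below their white-light arrays while the WT groups lie closer together, and of the 4 groups plotted FHL is high only in shaded phyA seedlings.

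For the catabolic and autophagy genes no such difference was called with all arrays. By limma, 0 of 10 genes on the amino acid catabolism list and 0 of 10 ATG genes passed, beside 3.66% of all probe sets. With so low a share over all probe sets, 0 of 10 does not set these lists apart. At an unadjusted p under 0.05 were 1 and 5 of them, and the median differences were 0.00 and 0.20. GAT1_2.1 had a difference of 0.03 ± 0.77 (adjusted p = 0.993) and IVD of -0.08 ± 0.33 (adjusted p = 0.94). Without array 3, MGL (1.25 ± 0.28, adjusted p = 0.0196), ATG8B (1.36 ± 0.30, adjusted p = 0.0146) and ATG8H (1.08, adjusted p = 0.0338) did pass, all higher in phyA. For the remaining genes of these lists, the test does not show that the genotypes respond alike.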

How the data were processed

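RNA of whole seedlings had been hybridised to Affymetrix arrays. The authors deposited probe set intensities from RMA (package affy), per the submitters' processing notes; tool versions: not given in the sources used here. With a range of 2.33 to 6167 these are linear intensities, and their log2 was used without pseudocount or further scaling. RMA compresses dim signals, which can understate fold changes. No detection calls were used.

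Groups came from the sample titles. A limma model with 6 group means took in all 16 arrays (limma 3.58.1, R 4.3.3; 10 residual degrees of freedom, or 9 without array 3), moderated by eBayes, with Benjamini-Hochberg adjustment over all 22746 probe sets. Adjusted p-values in the text are limma's. The procedure was tested on simulated data.

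The supplied annotation and a TAIR10.1 gene table gave 13513 probe sets 1 gene, 503 several and 8730 none; 13436 matched the table, and 1557 genes have a symbol. A gene's brightest probe set on average stood for it.

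The comparison, the gene lists and the rule for named genes were chosen with earlier results of these data known. The rule took the 12 highest and 12 lowest symbol-named changes called both ways without overlap, 3 each by locus tag, up to 4 members per list, the 6 highest and 6 lowest differences from WT called both ways, 4 each whose call depended on array 3, and the 5 that moved most without it. Of 466 list entries, 83 were measured, that is, had a probe set listing that gene alone. The others may have probe sets that the annotation leaves without a single gene. Lists for leucine breakdown, other carbon metabolism, SWEET transporters, nuclear NDH genes and iron response, and list members named beyond the rule, were chosen after their values were seen. SWEET genes (2 of 14 higher, 2 lower) and iron-response genes (3 of 10 higher, 2 lower) are only counted, beside 21.7% of all probe sets higher and 20.3% lower.

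Alternatives were median centring, cyclic loess, dropping the dimmest 40%, log2 of intensity plus 16, trended or robust variance, array weights, fewer groups, a replicate block, leaving out arrays, a single probe set per gene, and a minimum absolute log2 change of 1.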

Additional observations from a re-analysis of the deposited data

Results flagged for a closer look

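For 12 symbol-named genes the response to strong shade in phyA differed from that in WT by limma's interaction test, with all arrays and without array 3. The difference is the log2 fold change in phyA minus that in WT, with 10 residual degrees of freedom. It was higher in phyA for FHL (3.35 ± 0.36), EXPB1 (2.03 ± 0.39), OSM34 (1.80 ± 0.29), XTH19 (1.77 ± 0.40), P1R3 (1.45 ± 0.28) and DRT100 (1.44 ± 0.28). It was lower for NdhN (-3.29 ± 0.34), THI2.2 (-3.11 ± 0.41), LrgB (-2.87 ± 0.34), ECS1 (-2.76 ± 0.62), SBPASE (-2.2 ± 0.17) and Cpn60beta4 (-2.2 ± 0.34). The direction of the response itself was opposite in the group means of the genotypes for THI2.2, XTH19 and DRT100. The calls of ECS1, XTH19 and EXPB1 were lost when single arrays were left out, as given above. The groups held 2 or 3 arrays, too few to look for outlying arrays gene by gene.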

How the results depend on the processing

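Under 17 alternatives of the strong-shade comparison, no called change of the 135 named genes reversed, and 96 of the 109 called with all arrays were called in every one. Among the 26 not called, 5 changed sign under an alternative, without a call there. Of 2541 gene values under alternatives, 2277 of this comparison and 264 of the difference from WT for 12 genes, 2409 kept their side of the threshold, 76 lost a call and 56 gained one. The comparison within phyA called 9556 probe sets. It gave 5071 with 1 probe set per gene (2670 higher, 2401 lower; 13356 genes tested), 4161 when an absolute log2 change of 1 or more was required (1977 and 2184), and 7647 to 9923 with 1 array left out (3790 to 5180 higher, 3713 to 4743 lower). Median centring moved the median of all probe sets to 0.14, with 60.1% of calls higher against 51.8% in the reported fit and 46.3% after cyclic loess. The difference from WT called 833. It gave 393 with 1 probe set per gene (115 higher, 278 lower), 535 at the fold limit (133 higher), 1361 with array weights (562 higher) and 463 to 926 with 1 array left out (110 to 316 higher, 344 to 610 lower). The lowest total, 463, came without phyA white-light array 1, with 471 without WT white-light array 2 and 533 without phyA white-light array 2. The higher calls numbered 479 without the third phyA arrays of both shades, and 469 in a fit of only the groups compared without array 3, an alternative chosen after seeing the data. Why the counts moved was not tested, beyond the fewer genes or stricter limit of the first 2. With the replicate number as a block, 9293 and 719 probe sets were called, but the deviations of same-numbered arrays correlated at -0.054 to 0.060, so the numbers do not show a pairing. With 1 of 2 white-light arrays left out, the lone array was taken to vary as other groups do. The small number of arrays limits the precision, and dim probe sets understate changes.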
